A study of Mus musculus with 4 samples.

Results

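Imprinted genes are expressed mainly from 1 parental copy. DNA methylation or histone marks are set in the germline on 1 parental copy of an imprinting control region, which acts over a cluster of neighbouring genes. Many of them are strongly expressed in brain, where they act in growth control, neuronal differentiation and maternal behaviour. Several clusters also encode long noncoding RNAs that carry small RNAs. A list of 37 mouse imprinted genes, coding and noncoding, was matched by symbol to a hippocampus RNA sequencing table of 15713 genes, and 34 were found. Snurf, Asb4 and H19 were not analysed here. By textbook knowledge 19 of the 34 are expressed from the paternal copy and 11 from the maternal copy. For 4 (Grb10, Gnas, Begain and Ppp1r9a) it depends on isoform, tissue or cell type. Of those placed with the paternal genes, Inpp5f is so for a short isoform in brain. Of those placed with the maternal genes, H13 is so for its full-length transcripts and Ube3a for neurons. The counts sum both alleles and all isoforms of a gene, so parental origin was not measured.

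The study compared the hippocampus of C57BL/6 mice, an inbred strain, at 11 to 12 weeks of age. Control libraries (n = 2) came from mice labelled untreated, and ATO libraries (n = 2) from mice given 5000 ppb ATO in development. ATO is not spelled out in the labels, and the series title speaks of arsenic and of offspring. The labels state neither sex, litter and way of dosing nor the number of animals in a library, so the spread between libraries may in part be technical. Totals ran from 14832214 to 17251032 counts, so 1 count equals 0.0574 to 0.0678 normalised CPM (counts divided by the scaled library size, on a common scale for all libraries). Markers of CA1, CA3 and dentate gyrus neurons were counted in all libraries. The ATO libraries also held more RNA of the choroid plexus, the epithelium that makes cerebrospinal fluid: 20 of 20 markers rose, where 2.87% of all genes did. The summed level of these markers was 142 and 216 CPM in the controls against 3368 and 4228 CPM in ATO.

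Among the 34 imprinted genes 2 passed the test between ATO and control. Cdkn1c, the cell cycle inhibitor p57, rose 2.17-fold, and Rian, a noncoding RNA of the Dlk1-Dio3 domain, fell by 19.4%. Both are maternally expressed. Passing means a Benjamini-Hochberg adjusted p under 0.05 in edgeR's quasi-likelihood test over all genes. The share of members that passed, 5.88%, is read against 3.73% of all genes tested (2.87% higher and 0.859% lower in ATO). Among the members 27 of 34 had a fitted difference smaller than 1.2-fold. Leaving out control replicate 2 left 0 of the 34 genes past the threshold.

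**Figure D1:**
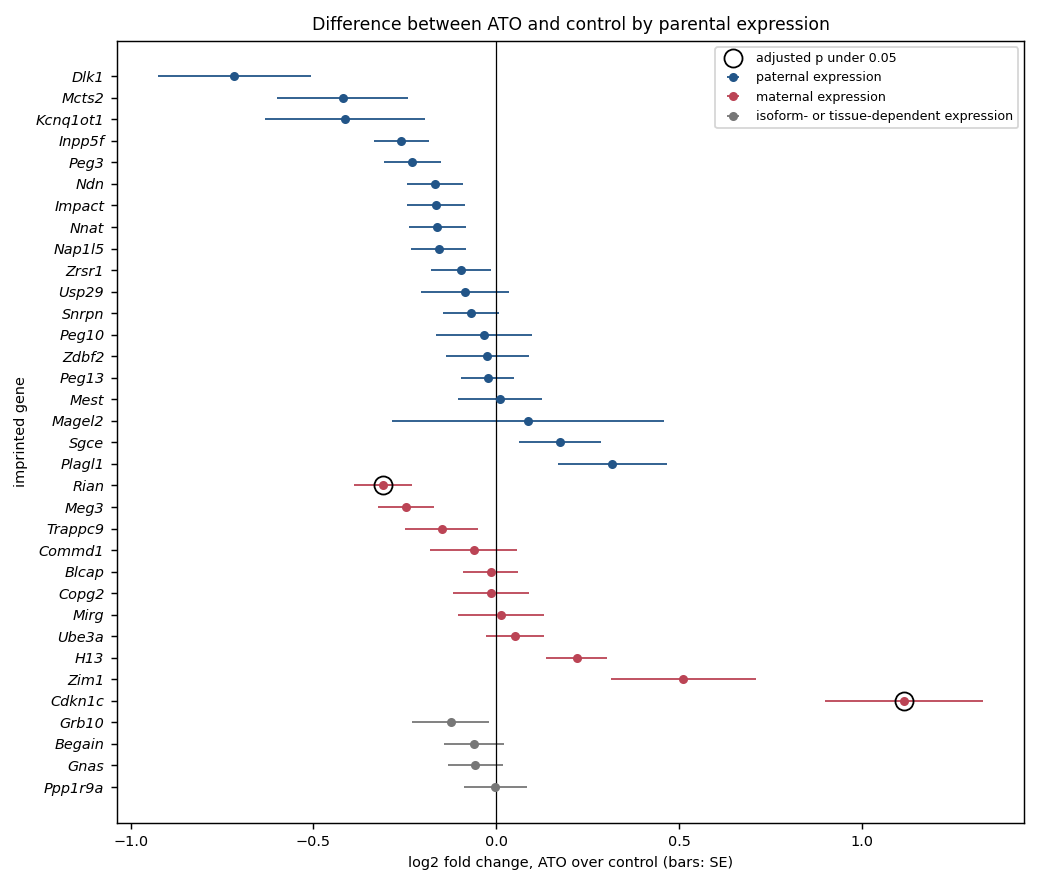
Log2 fold change of ATO over control (horizontal axis, bars are SE, n = 2 libraries a group) for 34 imprinted genes, grouped by the parental copy they are known to be expressed from. The 2 circled genes, Rian at -0.31 and Cdkn1c at 1.12, passed an adjusted p under 0.05; 25 of the 34 points lie left of 0.

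Levels of imprinted genes spanned a wide range in hippocampus. On the scale of the deposited FPKM, which corrects for gene length, the mean over the 4 libraries ran from 407 for Snrpn to 0.143 for Kcnq1ot1. The median member was at 8.10 FPKM and the median gene of the table at 4.98, and 20 members lay above that gene. Snrpn, which encodes the splicing protein SmN of neurons, was highest in every library, with 401 and 431 FPKM for the controls against 393 and 404 FPKM for ATO. Nnat, the membrane proteolipid neuronatin, followed with 202 to 245 FPKM, and the noncoding RNA Meg3 with 197 to 243 FPKM. The ranges of Nnat and Meg3 overlapped, so their order is not resolved. The order by FPKM also depends on the length taken for each gene, and annotated exon bases are 2159 for Snrpn and 18089 for Meg3. In CPM, which has no length correction, Meg3 stood at 3595 to 4433 and Snrpn at 841 to 931. Nap1l5, related to nucleosome assembly proteins, lay between 154 and 181 FPKM, below both.

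The next levels were those of Ndn, Gnas, Impact and Peg13. Ndn, which encodes the MAGE family protein necdin of postmitotic neurons, had 60.2 to 71.3 FPKM. Gnas, the gene of the stimulatory G protein alpha subunit, had 47.4 to 52.3 FPKM and overlapped with Impact, a regulator of the translation kinase GCN2, at 41.3 to 50.5 FPKM. Peg13, a noncoding RNA, was the most even of these 4, at 43.2 to 43.9 FPKM. Of the 33 pairs of neighbours in the order of mean FPKM, 20 had overlapping ranges over the 4 libraries. At the lower end, Magel2, a MAGE protein of the ubiquitin ligase and endosome machinery, had 0.34 to 0.80 FPKM. Kcnq1ot1 had 0.10 to 0.20 FPKM, and its annotated length of 93092 exon bases divides its reads over a long transcript.

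**Figure D2:**
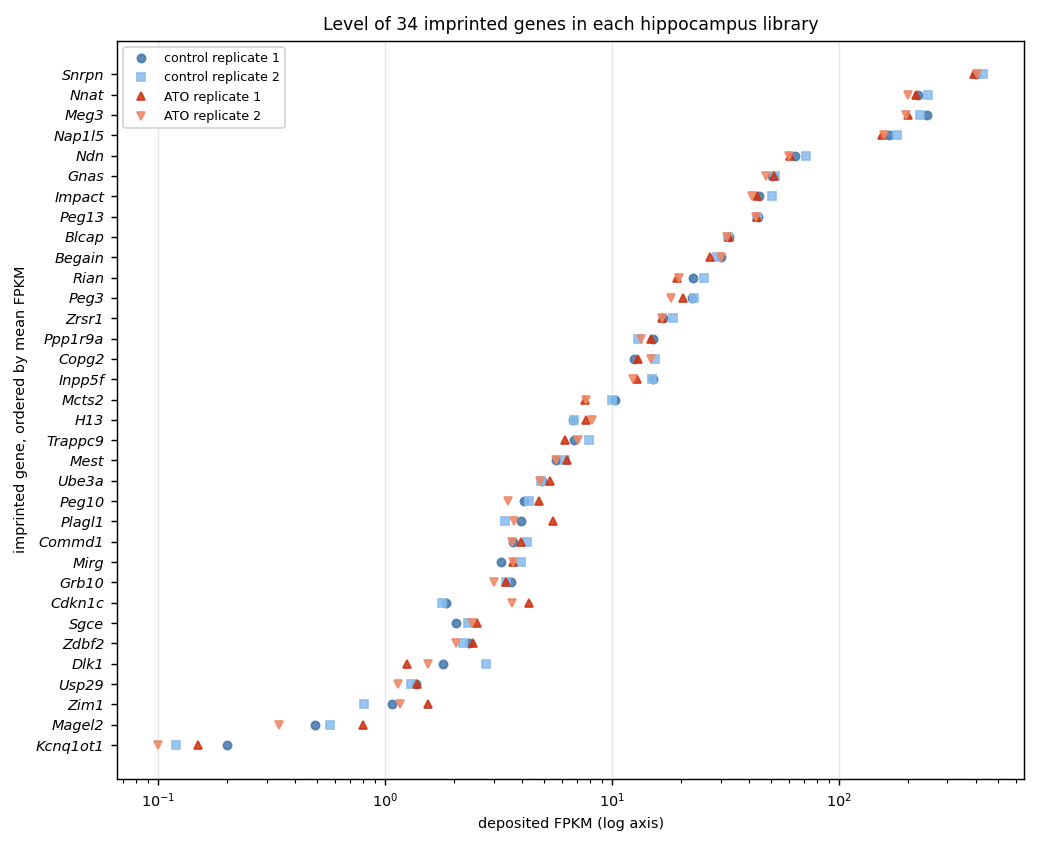
Deposited FPKM (horizontal log axis) of 34 imprinted genes in the 4 hippocampus libraries, ordered by mean FPKM. Snrpn is highest at 393 to 431 FPKM, and Cdkn1c is the member whose control points (1.78 and 1.85) lie farthest below its ATO points (3.61 and 4.31) as a ratio.

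Cdkn1c lies on chromosome 7 from 143458339 to 143461050 on the minus strand (GRCm38, ENSMUSG00000037664), in the domain governed by the noncoding RNA Kcnq1ot1. Its product binds and inhibits cyclin-dependent kinases and is known for holding stem cells and progenitors in quiescence. Control replicates 1 and 2 gave it 56 and 55 counts, and ATO replicates 1 and 2 gave 152 and 123. The normalised levels were 3.80 and 3.64 CPM in the controls and 8.73 and 7.40 CPM in ATO. Both ATO libraries lay above both controls, and the replicates of each group were close to each other. The log2 fold change was 1.12 ± 0.22 (SE, edgeR adjusted p = 0.0107). The authors' deposited table gives Cdkn1c a log2 fold change of 1.09 with an adjusted p of 0.0113, and Cdkn1c is the 1 member it marks as differentially expressed, against 0.974% of all genes. An adjusted p under 0.05 in that table is held by 3.30% of all genes.

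Leaving out control replicate 2 or ATO replicate 1 ended the call of Cdkn1c at similar sizes, with log2 fold changes of 1.08 (adjusted p = 0.0743) and 0.99 (adjusted p = 0.0503). Choroid plexus markers moved in the same direction between the groups (sums given above). So did markers of ependymal cells, which line the ventricles: 10 of 10 were higher in both ATO libraries and 7 of them rose. Of all genes 24.8% were higher in ATO with no overlap and 2.87% rose. The ependymal sum was 19.4 and 24.0 CPM for the controls against 56.5 and 40.2 CPM for ATO. Summed leptomeningeal markers, of fibroblasts in the brain's covering, were 434 and 263 CPM in the controls and 716 and 377 CPM in ATO. Most of that sum was 1 marker, Ptgds, with 334 and 213 CPM in the controls and 556 and 278 CPM in ATO. Of those 13 markers 1 rose. None of these 3 lists had a marker at 0 in all libraries, and their part in the difference of Cdkn1c was not tested. An annotated antisense gene overlaps 30.7% of the exon bases of Cdkn1c, and without strand information its reads and those of Cdkn1c cannot be told apart.

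Kcnq1ot1, the paternally expressed antisense RNA that silences Cdkn1c and its neighbours in cis, spans chromosome 7 from 143203458 to 143296549 on the minus strand. Its level was 18.7 and 11.6 CPM for the controls against 13.5 and 9.09 CPM for ATO, so the groups overlapped. The log2 fold change was -0.41 ± 0.22 (SE, edgeR adjusted p = 0.344). The replicates of each group differed as much as the groups did, and without ATO replicate 1 the value was -0.73 (adjusted p = 0.0343).

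The Dlk1-Dio3 domain on chromosome 12 holds paternally expressed protein genes and a chain of maternally expressed noncoding RNAs that are thought to be made as 1 long transcription unit: Meg3, Rian and Mirg. Rian starts 62.9 kb and Mirg 189 kb after the start of Meg3, all on the plus strand. Rian carries C/D box small nucleolar RNAs and microRNAs, and Mirg carries a large microRNA cluster. In the annotation 13 small nucleolar RNA genes and 4 microRNA genes lie within the span of Rian. RefSeq, a different source, places 3 microRNA hairpins within Rian, 14 within Mirg and 2 within Meg3. The small RNAs were not measured in these libraries. The mature microRNAs that RefSeq places within Rian are shown because this host RNA is the member that fell. Capitals mark the seed, bases 2 to 8, and no 2 of the 6 share one (RefSeq, GRCm38.p6, chromosome 12).
mmu-miR-341-5p: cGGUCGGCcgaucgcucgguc
mmu-miR-341-3p: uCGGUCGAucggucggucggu
mmu-miR-1188-5p: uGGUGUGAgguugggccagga
mmu-miR-1188-3p: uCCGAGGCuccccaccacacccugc
mmu-miR-370-5p: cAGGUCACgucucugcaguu
mmu-miR-370-3p: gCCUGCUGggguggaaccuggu

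Rian (ENSMUSG00000097451, chromosome 12 from 109603940 to 109661716) had 731 and 815 CPM in the controls and 611 and 636 CPM in ATO. Both ATO libraries were below both controls. The log2 fold change was -0.31 ± 0.08 (SE, edgeR adjusted p = 0.0448). This call was near the threshold: with library size as the only scaling it was lost (adjusted p = 0.0511), and it was also lost without control replicate 2 (adjusted p = 0.191), ATO replicate 1 (0.281) or ATO replicate 2 (0.0940). In the authors' deposited table the value for Rian is -0.31 with an adjusted p of 0.0472.

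Meg3, a nuclear noncoding RNA known as a growth suppressor, took more reads than any other member, 0.441% and 0.411% of the control counts and 0.363% and 0.358% of the ATO counts. Its CPM was 4433 and 4099 in the controls and 3595 in both ATO libraries. The groups did not overlap, and the log2 fold change was -0.25 ± 0.08 (SE, edgeR adjusted p = 0.0976). The difference did not pass in edgeR and passed in DESeq2's Wald test (adjusted p = 0.0392), in which 2.01% of all genes passed. In the authors' deposited table the value for Meg3 is -0.25 with an adjusted p of 0.204. The summed counts of the 34 genes made up 0.949% and 0.950% of each control library and 0.854% and 0.835% of each ATO library. Without Meg3 and Rian the remaining 32 took 0.436% and 0.458% of the control counts against 0.430% and 0.414% of the ATO counts.

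Mirg, the last of the chain, had 23.7 and 29.0 CPM in the controls and 26.5 and 26.7 CPM in ATO. Its log2 fold change was 0.01 ± 0.12 (SE, edgeR adjusted p = 0.968), and the ATO values lay between the controls. Whether Mirg differed from Rian in its response was not tested. Dlk1, a transmembrane ligand of the Notch family that acts in the maintenance of neural stem cells, had 10.2 and 15.8 CPM in the controls and 7.0 and 8.85 CPM in ATO. The groups of Dlk1 did not overlap, but the controls differed from each other by more than control replicate 1 differed from the ATO libraries. Its log2 fold change was -0.72 ± 0.21 (SE, edgeR adjusted p = 0.0747). It passed without control replicate 1 (-0.99, adjusted p = 0.0252) and without ATO replicate 2 (-0.89, adjusted p = 0.00801), and without control replicate 2 it was -0.38 (adjusted p = 0.484).

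Begain, a postsynaptic protein gene at the edge of the domain, had 140 and 135 CPM in the controls and 124 and 140 CPM in ATO. From outside the list, the domain's retrotransposon-derived gene Rtl1 stood at a log2 fold change of 0.00 ± 0.18 (SE) and the deiodinase gene Dio3 at -0.34 ± 0.19 (SE), with edgeR adjusted p-values of 0.995 and 0.391. These 2 genes were chosen for their position after their values were seen. Within the domain 1 of 5 members thus passed, where 3.73% of all genes did (0.859% lower), and 4 of 5 were below 0, where 51.0% of all genes were.

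**Figure D3:**
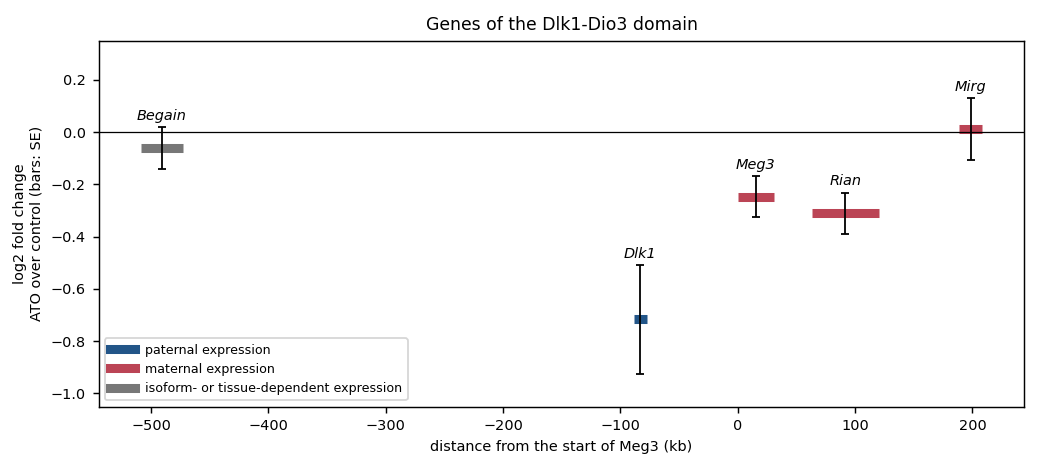
Log2 fold change of ATO over control (vertical axis, bars are SE) against the distance from the start of Meg3 in kb for the 5 members of the Dlk1-Dio3 domain; horizontal bars show each gene's span. Meg3 and Rian lie at -0.25 and -0.31, Dlk1 at -0.72, and Mirg and Begain near 0.

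Upstream sequence is shown for Meg3 and Rian because they are the neighbours of this domain that lay lower with no overlap and were the most abundant. The Rian stretch overlaps an exon of the small RNA gene Gm27350. Both stretches are on the plus strand, end before the annotated start of the gene, and come from RefSeq (GRCm38.p6). Capitals mark CG dinucleotides, the site of DNA methylation in imprinting.
Meg3, chr12:109540746-109540995: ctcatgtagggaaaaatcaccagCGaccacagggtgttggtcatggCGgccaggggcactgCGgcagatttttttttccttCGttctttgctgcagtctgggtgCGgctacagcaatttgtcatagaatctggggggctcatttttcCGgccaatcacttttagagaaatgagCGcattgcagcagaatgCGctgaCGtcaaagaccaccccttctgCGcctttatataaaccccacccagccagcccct
Rian, chr12:109603695-109603939: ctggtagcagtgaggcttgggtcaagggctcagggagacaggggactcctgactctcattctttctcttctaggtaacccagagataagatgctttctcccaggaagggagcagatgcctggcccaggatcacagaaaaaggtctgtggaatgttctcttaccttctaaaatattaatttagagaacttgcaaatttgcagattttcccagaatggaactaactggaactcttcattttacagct

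The stretch upstream of Meg3 held 10 CG dinucleotides and that of Rian 0. In windows of 300 bases around gene starts (250 before and 50 after), the earliest of Meg3 had 13 and that of Rian 0. Another window of Meg3, at a later start, had 1. The median was 7 over 32851 windows, of which 5.43% held none. The Meg3 stretch also holds, on the minus strand, 1 copy of TGCCGC, the hexamer known to be bound by the imprint-protecting protein ZFP57 when it is methylated. Both strands of every window were searched for TGCCGC. It was present in 13 of 45 windows of the members (28.9%, for 28 of the 34 measured genes with a window; a gene can have several) and in 11.6% of all windows. TGCCGC itself holds a CG, and these shares were not adjusted for the number of CG dinucleotides in a window. Windows of a gene can overlap, as those of Mest do, and a site is then counted in each. Methylation and binding were not measured, and a match is only a match of letters.

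The Peg3 domain lies on proximal chromosome 7. Peg3, a zinc finger protein gene known for maternal care and apoptosis, and Usp29, a deubiquitinase gene, are both paternally expressed and start back to back. Zim1, a maternally expressed zinc finger gene, is their neighbour. The bases between the annotated starts of Peg3 (minus strand, to the left) and Usp29 (plus strand, to the right) are shown as the interval from which both genes start, from RefSeq and with CG dinucleotides in capitals.
Peg3 to Usp29, chr7:6730432-6730577, plus strand: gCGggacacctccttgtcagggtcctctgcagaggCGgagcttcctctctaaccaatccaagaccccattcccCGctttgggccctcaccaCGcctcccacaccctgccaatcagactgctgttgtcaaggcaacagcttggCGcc

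This interval of 146 bases holds 5 CG dinucleotides and no TGCCGC. Peg3 had 308 and 311 CPM in the controls and 279 and 249 CPM in ATO, with no overlap, for a log2 fold change of -0.23 ± 0.08 (SE, edgeR adjusted p = 0.126). Usp29 had 24.8 and 23.5 CPM in the controls and 24.7 and 20.8 CPM in ATO, with overlap and a log2 fold change of -0.09 ± 0.12 (SE). Zim1 had 8.75 and 6.56 CPM in the controls and 12.3 and 9.45 CPM in ATO. The groups of Zim1 did not overlap, in the direction opposite to Peg3, and its log2 fold change was 0.51 ± 0.20 (SE, edgeR adjusted p = 0.184). None of these 3 genes passed, and the difference between Peg3 and Zim1 was not tested.

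At the H13 locus on chromosome 2 a paternally expressed retrogene, Mcts2, lies within H13, a signal peptide peptidase gene whose full-length transcripts come from the maternal copy. H13 had 60.2 and 60.4 CPM in the controls and 67.3 and 73.2 CPM in ATO, for a log2 fold change of 0.22 ± 0.08 (SE, edgeR adjusted p = 0.179). Mcts2, related to a translation reinitiation factor, had 9.43 and 9.14 CPM in the controls and 6.83 and 7.04 CPM in ATO. For Mcts2 the log2 fold change was -0.42 ± 0.18 (SE, edgeR adjusted p = 0.231). The host was thus higher and the retrogene lower in ATO with no overlap of the groups, and neither passed.

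The Snrpn-Ube3a domain on chromosome 7 is the mouse counterpart of the region lost in the Prader-Willi and Angelman syndromes. Snrpn had 873 and 931 CPM in the controls and 841 and 879 CPM in ATO, with overlap and a log2 fold change of -0.07 ± 0.08 (SE). Ndn had 238 and 264 CPM in the controls and 223 and 224 CPM in ATO, without overlap, and its log2 fold change was -0.17 ± 0.08 (SE, edgeR adjusted p = 0.264). Magel2 had 34 and 40 control counts and 64 and 26 ATO counts, and the ATO libraries lay on either side of the controls. Ube3a, the ubiquitin ligase gene expressed from the maternal copy in neurons, had 102 and 100 CPM in the controls and 109 and 100 CPM in ATO, with a log2 fold change of 0.05 ± 0.08 (SE). Of the 4 genes of this domain that were measured 0 passed, where 3.73% of all genes did. An unadjusted p under 0.05 in edgeR was reached by 1 of them, Ndn, and by 18.1% of all genes. Exons of Snurf and of the read-through gene Gm38393 lie within Snrpn (27.3% of its exon bases for Gm38393). The labels do not state how reads there were counted.

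Inpp5f, a phosphoinositide phosphatase gene with a paternally expressed short isoform in brain, had 126 and 125 CPM in the controls and 107 and 103 CPM in ATO. The controls agreed closely and the groups did not overlap. The fitted log2 fold change was -0.26 ± 0.07 (SE, edgeR adjusted p = 0.0726), the third smallest p among the members. The isoforms cannot be told apart in counts per gene. Plagl1, a zinc finger transcription factor that regulates other imprinted genes, had 31.3 and 26.4 CPM in the controls and 42.6 and 29.3 CPM in ATO. Its log2 fold change was 0.32 ± 0.15 (SE, edgeR adjusted p = 0.279). It rested on ATO replicate 1: without ATO replicate 2 Plagl1 was at 0.56 (adjusted p = 0.00497) and without ATO replicate 1 at 0.02.

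**Figure D4:**
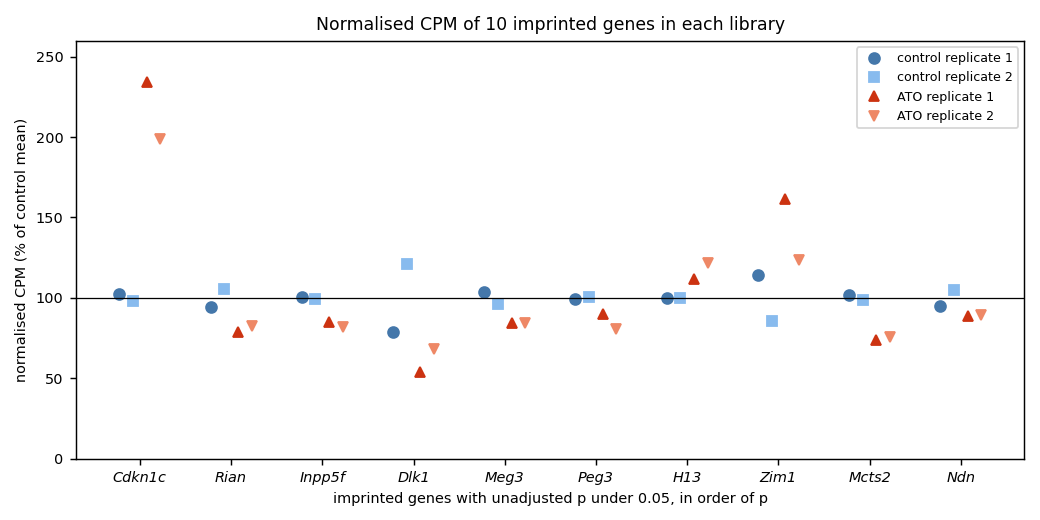
Normalised CPM as a percentage of the control mean (vertical axis) in each of the 4 libraries for the 10 imprinted genes with an unadjusted p under 0.05, in order of p. For each of the 10 genes both ATO points lie on 1 side of both control points, which picking by p in these same libraries favours. Of all genes 48.1% had groups that did not overlap. Cdkn1c, Zim1 and H13 lie above and the other 7 below.

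Several abundant paternally expressed genes were lower in both ATO libraries without passing the test. Nnat had 411 and 449 CPM in the controls and 397 and 372 CPM in ATO (log2 -0.16 ± 0.08, SE). Nap1l5 had 307 and 333 CPM in the controls and 282 and 291 CPM in ATO (log2 -0.16 ± 0.08, SE). Impact had 229 and 259 CPM in the controls and 222 and 213 CPM in ATO (log2 -0.16 ± 0.08, SE). These 3 genes had edgeR adjusted p-values of 0.289 to 0.298. Peg13 and its maternally expressed host gene Trappc9, which encodes a subunit of a vesicle tethering complex, stood at -0.02 ± 0.07 and -0.15 ± 0.10 (log2, SE). For Peg13 this came from 209 and 206 CPM in the controls and 203 and 206 CPM in ATO.

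The remaining members stayed within small differences, and 0 of them passed. Gnas had 579 and 596 CPM in the controls and 586 and 543 CPM in ATO. The log2 fold changes of Gnas, Blcap (a growth-inhibitory gene that hosts Nnat), Zdbf2 (a zinc finger gene), Peg10 (a retrotransposon-derived gene), Commd1 (a regulator of copper handling), Copg2 (a coat protein of vesicles), Mest (a hydrolase-like gene of growth) and Ppp1r9a (neurabin, of the actin cytoskeleton) lay between -0.06 and 0.01. Zrsr1, a splicing factor retrogene within Commd1, was at -0.10 ± 0.08, and Grb10, an adaptor of insulin receptor signalling, at -0.12 ± 0.11 (log2, SE). Sgce, epsilon-sarcoglycan, was higher in both ATO libraries at 0.17 ± 0.11 (log2, SE; edgeR adjusted p = 0.454). Mest and Copg2 share 912 exon bases on opposite strands (23.1% of those of Mest), and Zrsr1 and Commd1 share 412, so reads there cannot be told apart without strand information.

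As a group, 25 of the 34 members (73.5%) had a log2 fold change below 0, compared with 51.0% of all genes. Their median was -0.06, and that of all genes was -0.0050. The groups of libraries did not overlap for 18 members (52.9%, 14 lower and 4 higher in ATO), close to the 48.1% of all genes (24.8% higher and 23.4% lower). An unadjusted p under 0.05 was reached by 10 members (29.4%, 7 lower and 3 higher) and by 18.1% of all genes (7.55% lower and 10.6% higher). The 19 paternally expressed members had a median of -0.10, with 15 below 0 and 0 past the threshold. The 11 maternally expressed members had a median of -0.01, with 6 below 0 and 2 past it. The median of the paternally expressed members was -0.19 without ATO replicate 1. No test of these medians was made, since the members were chosen with results known. In the same libraries summed CA1 pyramidal neuron markers were 766 and 756 CPM in the controls and 511 and 685 CPM in ATO, and 3 of 8 fell. GABAergic interneuron markers summed to 1252 and 1360 CPM for the controls against 1112 and 1192 CPM for ATO, with 1 of 12 (Npy) fallen and 9 lower without overlap. Dentate granule neuron markers summed to 680 and 588 CPM for the controls against 832 and 736 CPM for ATO, with 2 of 12 risen and 10 higher. The part of these lists in the values of the imprinted genes was not tested. Fewer cells of a type and less RNA in each cell cannot be told apart in bulk tissue.

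Among 29 other measured imprinted genes, 2 rose and 1 fell, where 2.87% of all genes rose and 0.859% fell. Whether these 29 genes are imprinted in hippocampus was not examined. Their median log2 fold change was -0.0073. Igf2, the growth factor gene of the Igf2-H19 domain, had 52 and 25 control counts and 171 and 117 ATO counts (log2 1.70 ± 0.30, SE; edgeR adjusted p = 0.00517). Pon3, a paraoxonase gene near Ppp1r9a, had 20 and 23 control counts and 58 and 77 ATO counts (log2 1.46 ± 0.32, SE; edgeR adjusted p = 0.0221). Dcn, the proteoglycan decorin, fell from 57.7 and 65.9 CPM to 44.3 and 39.6 CPM (log2 -0.56 ± 0.10, SE; edgeR adjusted p = 0.00488). None of these 3 calls held when control replicate 2 was left out (edgeR adjusted p = 0.0699 for Igf2, 0.102 for Pon3 and 0.0649 for Dcn). Pon3 was also lost in DESeq2's Wald test (adjusted p = 0.0687), without control replicate 1 (0.0813) and without ATO replicate 2 (0.113). Igf2 is also expressed by leptomeninges and choroid plexus, whose markers moved as given above; their part was not tested.

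Of 24 genes that set, keep or read imprints, which include the DNA methyltransferases, the TET enzymes, ZFP57 and CTCF, 0 passed in edgeR's quasi-likelihood test and 5 had an unadjusted p under 0.05 (4 higher and 1 lower in ATO), close to the 18.1% of all genes; 0 passed in DESeq2's Wald test. Dnmt1, the maintenance methyltransferase, had 41.9 and 55.0 CPM in the controls and 40.0 and 39.0 CPM in ATO. Its log2 fold change was -0.30 ± 0.12 (SE, edgeR adjusted p = 0.190), and control replicate 2 stood apart: without control replicate 1 the value was -0.48 (adjusted p = 0.0301). Yy1, a factor that binds the Peg3 control region, had 93.3 and 89.0 CPM in the controls and 109 and 105 CPM in ATO (log2 0.23 ± 0.08, SE; edgeR adjusted p = 0.117). Kdm1b, a histone demethylase that sets maternal imprints in oocytes, was at 0.39 ± 0.15 (log2, SE; edgeR adjusted p = 0.198).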

How the data were processed

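The submitters' processing notes name FastQC (0.10.1), cutadapt (version 1.9.1), HISAT2 (version 2.0.1), HTSeq (version 0.6.1), limma (version 3.47.15) under R 4.1.0, and the build GRCm38, with no role stated. Neither settings nor strandedness could be read from the labels. Per the labels' protocols the libraries were made from messenger RNA with a TruSeq kit. Per the file headers the authors deposited, for each library, the count per gene and the FPKM, and for the comparison a log2 fold change, a p-value and an adjusted p-value. FPKM was used only to order levels.

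The counts of 2 control and 2 ATO libraries were tested with edgeR 4.0.16 (R 4.3.3). No covariate entered the quasi-likelihood test, p-values were adjusted by Benjamini-Hochberg over 15713 genes, libraries were scaled by TMM (factors 0.994 to 1.01), and the filter filterByExpr took out 0 genes. Normalised CPM uses the scaled library size. The SE is the absolute log2 fold change divided by the square root of the F statistic. An exact permutation test of 2 against 2 libraries cannot go below p = 0.333 and was not used. Alternatives were DESeq2 1.42.0, limma-voom (limma 3.58.1), other scalings and filters, a replicate block and leaving out each library. Positions came from GENCODE vM21 (GRCm38), which matched 99.9% of the identifiers, and sequences from RefSeq (GRCm38.p6).

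All members found are named. Values per library are given for the 12 members with the smallest p and the 8 with the highest FPKM. Beyond that rule they are given for other members of the same domains. Of other lists, those that passed or up to 3 with the smallest p are named, and Ptgds for its share of a marker sum. The members and lists were chosen with earlier results of these data known. The fit was tested on simulated counts with known changes. At an adjusted p under 0.05 it recovered 26% of 1.25-fold, 56% of 1.5-fold, 77.6% of 2-fold and 94% of 4-fold changes. Of 135 calls 9 (6.67%) were false.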

Additional observations from a re-analysis of the deposited data

How the results depend on the processing

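With 2 libraries a group, small differences are at the limit of what the depth and the spread allow. Over 11 alternatives 23 of the 34 imprinted genes kept their direction, and 339 of 373 values kept direction and side of the threshold. Of these alternatives, the fit without a filter repeats the main fit by construction, since filterByExpr took out 0 genes. Magel2 did not pass the stricter filter. Fewer samples are the construction of the fits that leave out a library; for the other changes the cause was not tested. With the replicate number as a block (replicate block), 1 imprinted gene was higher and 5 were lower (Rian, Dlk1, Meg3, Inpp5f and Peg3), 1 gene of the imprinting machinery was higher (Yy1), and 890 and 476 of all genes were higher and lower, against 451 and 135. The labels do not pair the libraries; deviations of same-numbered libraries correlated at 0.0877 across genes. DESeq2's Wald test gave 252 higher and 64 lower of all genes, 2 lower imprinted genes and 1 higher gene among the other imprinted genes. Library size only gave 0 lower imprinted genes. Leaving out 1 library gave 180 to 443 higher and 42 to 168 lower genes, 0 to 2 higher and 0 to 2 lower imprinted genes, 0 to 2 higher and 0 to 1 lower other imprinted genes, and 0 to 1 lower machinery genes. The median of all members was then -0.12 to -0.0414, of paternally expressed ones -0.19 to -0.0743 and of maternally expressed ones -0.12 to 0.04. That last median was -0.0172 with RLE size factors, -0.0078 with library size only, -0.0168 in DESeq2, -0.0099 in limma-voom and -0.0094 with the block. Direction reversed, always without passing, for Magel2 (-0.0325) and Ppp1r9a (0.00080) in limma-voom, and for Ppp1r9a (0.0045) with library size only. Leaving out 1 library also reversed it for these 11 genes, with ranges of -0.15 to 0.0258 for Begain, -0.12 to 0.16 for Mirg, -0.66 to 0.57 for Magel2, -0.0094 to 0.11 for Ube3a, -0.21 to 0.0307 for Usp29, -0.27 to 0.17 for Peg10, -0.12 to 0.12 for Ppp1r9a, -0.0663 to 0.0808 for Mest, -0.15 to 0.14 for Copg2, -0.15 to 0.0363 for Commd1 and -0.15 to 0.0898 for Zdbf2.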

Other observations

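Genes that neighbour the imprinted genes and are absent from the lists of imprinted genes used here were read from the same fit. They include the Snrpn-Ube3a transcripts Snhg14 and Gm38393 and the machinery gene Yy1. They are thus not a set shown to be free of imprinting. Within 250 kb of a member 76 such genes were measured. Of these 2 rose and 0 fell (2.63%, against 3.73% of all genes tested), and their median log2 fold change was 0.0068. Gm44250, a predicted gene near Ppp1r9a, rose from 2.08 to 11.3 CPM (mean of 2 libraries each; log2 2.44 ± 0.23, SE, edgeR adjusted p = 1.96e-05). Phactr2, a phosphatase and actin regulator near Plagl1, rose from 26.8 to 37.6 CPM (log2 0.49 ± 0.11, SE, edgeR adjusted p = 0.0235). The call of Phactr2 was lost in DESeq2's Wald test (adjusted p = 0.0580), without control replicate 2 (0.146) and without ATO replicate 1 (0.184).

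Snhg14, the long noncoding host transcript that runs antisense to Ube3a and silences its paternal copy in neurons, stood at 89.4 CPM in control and 75.2 CPM in ATO (means of 2 libraries). Its log2 fold change was -0.25 ± 0.08 (SE, edgeR adjusted p = 0.108). It was chosen after its values were seen. Gm38393, the read-through gene that shares exons with Snrpn and Snurf, stood at -0.29 ± 0.15 (log2, SE, edgeR adjusted p = 0.313) where Snrpn stood at -0.07. Exons of Snhg14 overlap 8.74% of those of Ube3a on the opposite strand.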
